A study of Mus musculus with 11 samples.

Results

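The response of 4T1 cells to activated cyclophosphamide while the type I interferon receptor was blocked is described here. Cells given 4HC together with an antibody against IFNAR1 were compared with vehicle control cells, and cells given 4HC alone stand beside them as a reference for the antibody. 4T1 is a mouse mammary carcinoma line of BALB/c origin. The antibody group was exposed to 5 uM 4HC for 4 h with 10 ug/mL of the monoclonal antibody MAR1-5A3, washed, and kept for another 68 h in fresh medium with antibody. The 4HC group had the same drug exposure and wash without antibody. Control cells received vehicle and all 3 groups were collected at 72 h. The comparison rests on 5 of the 11 samples of the series, 3 cultures with 4HC and antibody and 2 control cultures, and on all 24197 gene rows of the table. The experiment had neither a group with the antibody alone nor one with a control antibody, so an effect of the antibody itself cannot be told apart from the blocking of the receptor.

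4HC, 4-hydroperoxycyclophosphamide, is a form of the alkylating drug cyclophosphamide that is active in culture without liver metabolism and crosslinks DNA. Type I interferons (IFNα and IFNβ) bind a receptor made of the chains IFNAR1 and IFNAR2. The receptor activates JAK1 and TYK2, and a complex of STAT proteins and IRF9 then binds the interferon-stimulated response element (ISRE) of interferon-stimulated genes (ISGs), many of which encode antiviral proteins. NF-kB and AP-1 are separate transcription factor families that act on genes of inflammation, matrix breakdown and growth.

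Levels are FPKM, fragments per kilobase of gene scaled to the mapped reads of the library. The table holds 1 mean per group, and the values of single libraries were recovered from these means by arithmetic. They are given in the order of sequencing depth, since they could not be matched to replicate numbers. The recovered depths were 38286964 to 41463693 reads with 4HC and antibody, 32094187 to 39340298 reads with 4HC alone and 33658928 and 35769783 reads in control. Library values were found for 87.0% of the genes above 1 FPKM with 4HC and antibody and for 88.5% in control, and the genes without them had higher levels (median 15.4 against 5.82 FPKM in the antibody group). Such genes are given by the authors' mean, with a fold and no test. The libraries with antibody differed among themselves by an SD of 0.184 to 0.215 in log2 level over 4890 genes above 3 FPKM, and the 2 control libraries by 0.33. The deepest antibody library was closer to the shallowest 4HC library (SD 0.177) than to either library of its own group, and the shallowest antibody library was closer to the middle 4HC library (0.171). In the antibody group the epithelial genes Krt8, Krt18 and Epcam averaged 136, 218 and 33.3 FPKM, against 52.3, 88.1 and 19.3 FPKM in control, while the epithelial cadherin Cdh1 averaged 49.1 FPKM with antibody, 50.5 FPKM with 4HC and 63.0 FPKM in control. The defining markers of leukocytes (Ptprc, Cd3e, Itgam, Csf1r) and endothelium (Pecam1, Cdh5) were below 0.07 FPKM in all 3 groups.

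The question is which of the 4HC responses remained when IFNAR1 was blocked. With 4HC and antibody, inflammatory mediators (Il1a, Csf2, Cxcl1, Ccl20, Nos2), matrix proteases (Mmp13, Mmp3) and genes of mitosis (Ccnb2, Hmmr) stood far above control, and genes of RNA processing (Prpf3, Fbl, U2af1) stood below it. The ISG Igtp overlapped its control level, Oas2 and Irf7 were slightly above control and far below 4HC alone, and others (Oasl1, Rsad2, Gbp4) rose over control. A gene is said here to have risen or fallen when its scaled fold exceeded 2, its higher group exceeded 1 FPKM and limma gave an adjusted p below 0.05. Of 10607 genes above 1 FPKM, 1297 (12.2%) were more than 2-fold higher with 4HC and antibody than in control, and 439 (4.14%) were more than 2-fold lower. Of the 9224 genes with library values, 1231 (13.3%) rose and 371 (4.02%) fell. Every list count below is to be read beside these shares. Without regard to fold, limma called 2749 genes (29.8%) higher and 2067 (22.4%) lower. Among the genes that rose, 327 exceeded 4-fold, 88 exceeded 8-fold and 28 exceeded 16-fold, whereas among the genes that fell 29 exceeded 4-fold and 7 exceeded 8-fold. Of the calls, 922 of 1231 and 190 of 371 remained when each library was left out in turn. Without the shallower control library alone, 1059 and 241 remained.

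**Figure D1:**
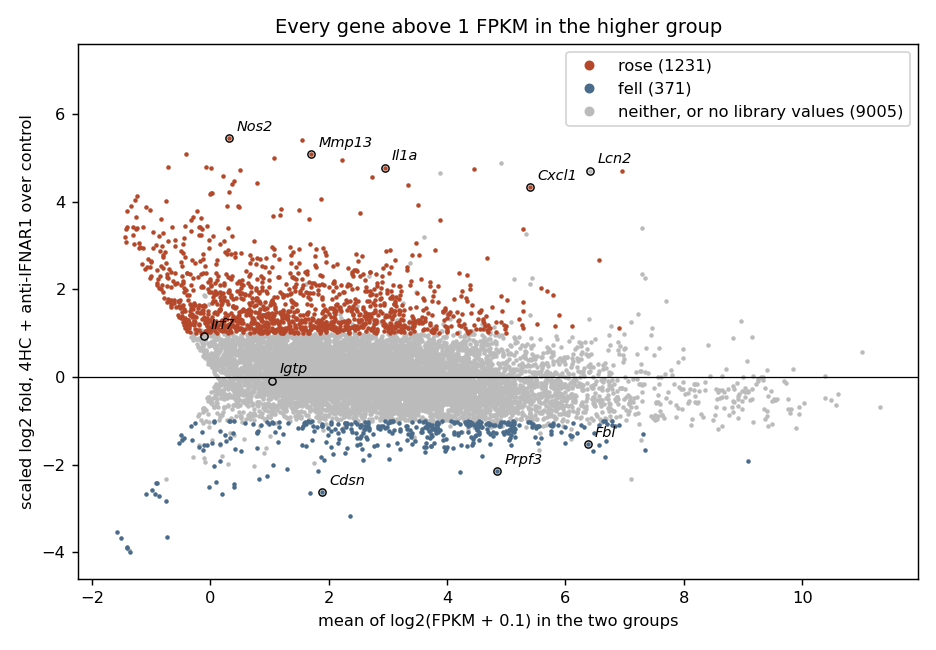
Each point is a gene above 1 FPKM in the higher of both groups. The x axis is the mean of log2(FPKM + 0.1) over 4HC with antibody and control, and the y axis is the scaled log2 fold of 4HC with antibody over control. The 1231 genes that rose reach a log2 fold of 5.45 (Nos2), while the 371 that fell reach -3.99, and among genes above 5 FPKM that were named here Cdsn is at -2.62.

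The genes that rose with 4HC and antibody had a median log2 fold of 1.49 over control, and the same genes had a median of 1.43 with 4HC alone over control. These medians share the control libraries and were set side by side without a test. Directly against 4HC alone, the same genes had a median log2 difference of 0.09. Of the 1191 that could be tested against 4HC, 20 were lower with antibody and 0 were higher. Among all 8878 genes tested against 4HC, 0.721% were lower and 0.0225% higher. Genes that fell had a median of -1.21 with antibody and -1.08 with 4HC alone, and none of the 325 that could be tested differed from 4HC by the same call. Both sets were picked by their levels in the antibody libraries, which also enter the comparison with 4HC.

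Chemokines recruit leukocytes, and CXC and CC chemokines formed the list with the highest median. Of 30 members, 13 were above 1 FPKM, 11 rose and 0 fell, with a median log2 fold of 3.62 against 0.04 over all genes above 1 FPKM. The minimum applies to the higher group, so members low in control, such as Ccl3 and Cxcl10, enter the median through the antibody group. The same holds for the other list medians. Cxcl1 (mm9 chr5:91320270-91322141), a ligand of the neutrophil receptor CXCR2, had 181, 198 and 198 FPKM with 4HC and antibody, against 9.31 and 8.98 FPKM in control. The groups lay far apart with no overlap. Its log2 fold was 4.33 (SE 0.11, limma adjusted p = 3.3e-06), and with 4HC alone its mean was 159 FPKM. Ccl20 (chr1:83113340-83115742), the ligand of CCR6, had 33.3, 32.4 and 32.6 FPKM with antibody, 34.7, 31.1 and 34.2 FPKM with 4HC alone, and 0.871 and 1.63 FPKM in control. The libraries with and without antibody overlapped, and both groups lay apart from control. Ccl5 (chr11:83339280-83344020), which attracts T cells and monocytes, had 39.4, 54.7 and 45.8 FPKM with antibody, against 2.26 and 1.90 FPKM in control (log2 fold 4.37, limma adjusted p = 1.45e-05). Cxcl5, another CXCR2 ligand, had no library values and averaged 168 FPKM with antibody, 140 FPKM with 4HC and 5.36 FPKM in control, a scaled fold of 29.8. The other members that rose were Cxcl3, Ccl3, Ccl2, Cxcl2, Ccl17, Cx3cl1, Cxcl10 and Cxcl16, and the one that did not, Ccl25, had a log2 fold of 0.35. None of the 13 differed from 4HC alone by the call used here, though 3 had no library values for that comparison.

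Of 33 interleukins and haematopoietic growth factors, 17 were above 1 FPKM, 10 rose and 1 fell, with a median log2 fold of 1.43. Among all tested genes 13.3% rose and 4.02% fell. Il1a (chr2:129125345-129135708), the alarmin interleukin-1α, had 38.4, 42.3 and 42.3 FPKM with antibody, 40.6, 41.7 and 41.7 FPKM with 4HC alone, and 1.19 and 1.51 FPKM in control. Its antibody libraries straddled the 4HC libraries, and the log2 difference between both was 0.01 (limma adjusted p = 0.965). Csf2 (chr11:54060771-54063401), which encodes GM-CSF, had 7.17, 6.03 and 8.70 FPKM with antibody, against 0.108 and 0.230 FPKM in control. This corresponds to 890 reads against 12 reads, a depth-scaled ratio of 42.2 with an exact 95% interval of 24.0 to 82.0 for counting error alone. Il6 (chr5:30339700-30346508) had 0.910, 1.25 and 1.23 FPKM with antibody, against 0 and 0.0273 FPKM in control, a single read in the shallower control library. Csf3 (G-CSF), Tnf and Tslp also rose, by 3.38, 3.31 and 2.52 in log2 fold; these 3 were named after their values were seen. Il23a, a subunit of interleukin-23, had 9.03, 9.35 and 10.5 FPKM with antibody, against 22.5 and 19.8 FPKM in control, and was the only member that fell.

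Nos2 (chr11:78734360-78773626), the inducible nitric oxide synthase and a target of NF-kB, showed the highest log2 fold of all genes that rose. It had 6.67, 10.2 and 7.99 FPKM with antibody, 9.94, 8.12 and 9.75 FPKM with 4HC alone, and 0.0981 and 0.0745 FPKM in control. The log2 fold was 5.45 (SE 0.22, limma adjusted p = 1.45e-05), and the ratio of reads, which carries no pseudocount, was 92.2 (exact 95% interval 61.9 to 144). Of 24 NF-kB targets and regulators above 1 FPKM, 11 were more than 2-fold higher, 9 of them rose and 0 fell, with a median of 0.79. Zc3h12a, an RNase that degrades cytokine transcripts, had 5.74, 7.46 and 6.50 FPKM with antibody, against 1.26 and 0.794 FPKM in control. Ikbke, a kinase upstream of IRF3 and NF-kB, rose by 2.20 in log2 fold. In contrast, Nfkbia, the NF-kB inhibitor IκBα, had 33.5, 36.4 and 36.6 FPKM with antibody, against 31.3 and 34.3 FPKM in control (limma adjusted p = 0.684).

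Acute phase and complement genes had a median log2 fold of 3.20 over 9 members, of which 7 were more than 2-fold higher, 4 rose and 0 fell, while 3 had no library values. Saa3, serum amyloid A, had 23.5, 17.9 and 16.6 FPKM with antibody, against 0.632 and 0.0560 FPKM in control, a log2 fold of 5.40 with an SE of 0.56 that reflects the distance between the control libraries. Lcn2, the iron-carrier-binding lipocalin-2, averaged 444 FPKM with antibody, 355 FPKM with 4HC alone and 16.3 FPKM in control. Complement C3 averaged 75.5, 67.6 and 2.79 FPKM in the same order. Slpi, an inhibitor of leukocyte elastase, had 93.4, 142 and 110 FPKM with antibody, against 3.51 and 4.58 FPKM in control.

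**Figure D2:**
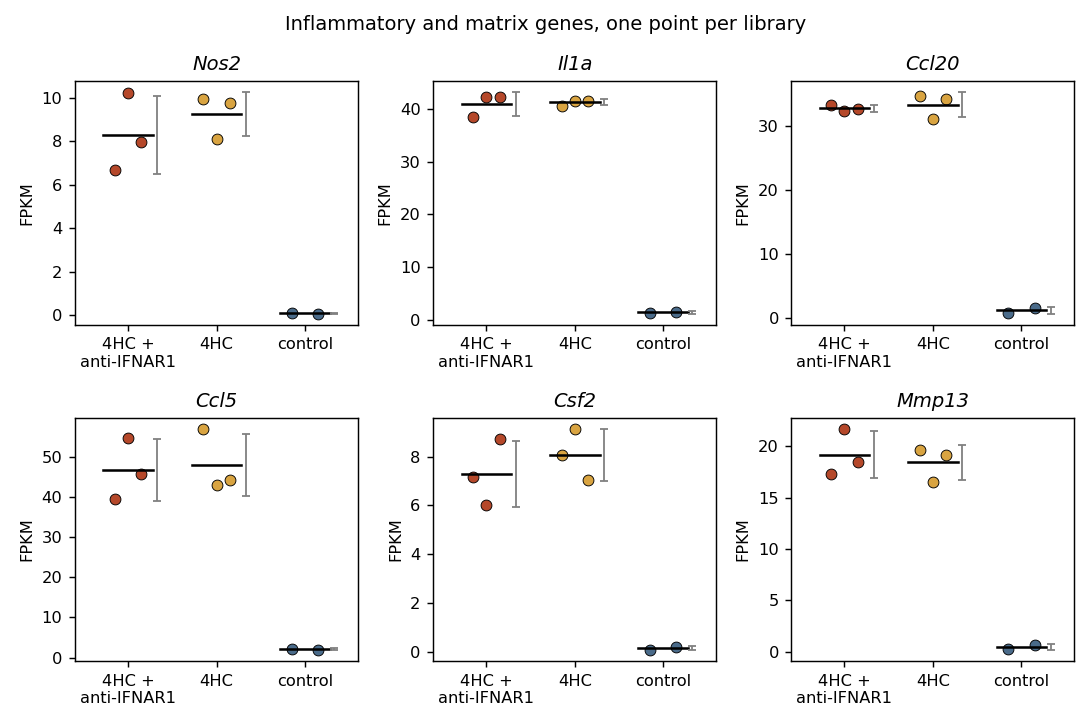
FPKM of Nos2, Il1a, Ccl20, Ccl5, Csf2 and Mmp13 on linear axes, with 1 point per library, a horizontal line at the group mean and a grey bar of ± 1 SD, for 4HC with antibody (3 libraries), 4HC (3) and control (2). In each panel the antibody and 4HC points share a range and the control points lie near 0.

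Among matrix metalloproteinases, plasminogen activators and their inhibitors, 15 of 28 were above 1 FPKM, 10 rose and 0 fell, with a median log2 fold of 3.10. Mmp13 (chr9:7272513-7283333), a collagenase, had 17.4, 21.7 and 18.5 FPKM with antibody, 19.7, 16.5 and 19.2 FPKM with 4HC alone, and 0.230 and 0.666 FPKM in control. The stromelysin Mmp3 had 48.6, 48.0 and 38.2 FPKM with antibody, against 2.00 and 3.52 FPKM in control, and Mmp10, the other stromelysin, rose by 4.43 in log2 fold. Plat, tissue plasminogen activator, had 9.72, 9.34 and 7.04 FPKM with antibody, against 0.519 and 0.469 FPKM in control. Of 22 collagens and matrix proteins above 1 FPKM, 17 were more than 2-fold higher and 9 rose, while 12 had no library values. Postn (periostin) had 3.45, 7.87 and 5.96 FPKM with antibody, against 0.484 and 0.775 FPKM in control, and Spp1 (osteopontin) averaged 515 FPKM with antibody, 418 FPKM with 4HC and 47.3 FPKM in control. No member of either list passed the call against 4HC alone, for which 5 proteases and 12 matrix genes had no library values.

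The antiviral ISGs behaved otherwise. Of 28 members above 1 FPKM with antibody or in control, 10 rose and 0 fell, beside the 13.3% of all tested genes that rose, with a median log2 fold of 0.49. With 4HC alone over control the list's median was 2.38. Directly against 4HC alone, 27 of 37 members were lower with antibody and 0 were higher, with a median of -1.40, while among all 8878 genes tested 64 were lower (0.721%) and 2 were higher (0.0225%). By fold alone 84 (0.796%) were lower and 16 (0.152%) higher, and by limma without regard to fold 88 (0.991%) were lower and 7 (0.0788%) higher. The list was assembled from genes known as ISGs and with earlier results of these data known. Oas2 (chr5:121180341-121199857), an oligoadenylate synthase of the RNase L pathway, had 0.0687, 0.0472 and 0.101 FPKM with antibody, 4.44, 4.25 and 9.30 FPKM with 4HC alone, and 0 and 0.0384 FPKM in control. Every antibody library lay far below every 4HC library, by a log2 difference of -5.12 (limma adjusted p = 0.000305). All 3 antibody libraries were above both control libraries, with 33 reads against 5 reads, a depth-scaled ratio of 3.76 (exact 95% interval 1.46 to 12.3), at a level under the 1 FPKM minimum. Irf7 (chr7:148449081-148452323), the transcription factor that amplifies IFNα production, had 1.04, 1.18 and 1.38 FPKM with antibody, 13.2, 15.6 and 23.6 FPKM with 4HC, and 0.241 and 0.879 FPKM in control. It was lower than with 4HC by 3.74 on the log2 scale (limma adjusted p = 0.000273) and did not pass the test against control (log2 fold 0.93, adjusted p = 0.0602), although its antibody libraries were all above control. Its reads gave a depth-scaled ratio of 2.10 (exact 95% interval 1.61 to 2.77), and its log2 fold was 1.04 with a pseudocount of 0.01. In the 4HC group the shallowest library had the highest value of Oas2 and of Irf7.

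Some ISGs remained above control under the antibody. In the study's own check with added IFNβ, the antibody blocked most ISG induction, but less of that of Oasl1 at the highest dose. The study says that the antibody may have been too little there. Receptor signalling left under the antibody and induction without the receptor cannot be told apart here. Oasl1 (chr5:115373248-115387920), an OAS-like protein without synthase activity, had 8.55, 7.64 and 8.53 FPKM with antibody, 16.4, 18.3 and 28.4 FPKM with 4HC alone, and 2.07 and 1.59 FPKM in control. The 3 groups did not overlap, and Oasl1 both rose over control (log2 fold 2.07, limma adjusted p = 7.68e-05) and was lower than with 4HC (-1.32, adjusted p = 0.0181). Rsad2 (viperin), Zbp1 (a Z-form nucleic acid sensor) and Ifit1 rose by 2.39, 2.39 and 1.84, and were lower than with 4HC by 1.5, 2.25 and 2.01 on the log2 scale. Isg15, the ubiquitin-like modifier, had 13.9, 12.9 and 12.4 FPKM with antibody, 48.0, 54.2 and 84.8 FPKM with 4HC and 5.62 and 6.52 FPKM in control. Its log2 fold over control of 1.05 was 0.93 without the deeper control library and 0.99 without the deepest antibody library, both under the 2-fold limit. Oasl2 was at 1.15, and at 0.89 without the shallower control library. Against 4HC, the calls of Oasl1, Ifit1 and Rsad2 did not hold when the deepest or the middle antibody library was left out (limma adjusted p of 0.0662 and 0.112 for Oasl1, 0.0832 and 0.129 for Ifit1, 0.0718 and 0.129 for Rsad2). The calls of Ifit1 and Rsad2 were also lost without the middle 4HC library (0.0803 and 0.0753), and that of Rsad2 without the shallowest antibody library (0.0545).

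**Figure D3:**
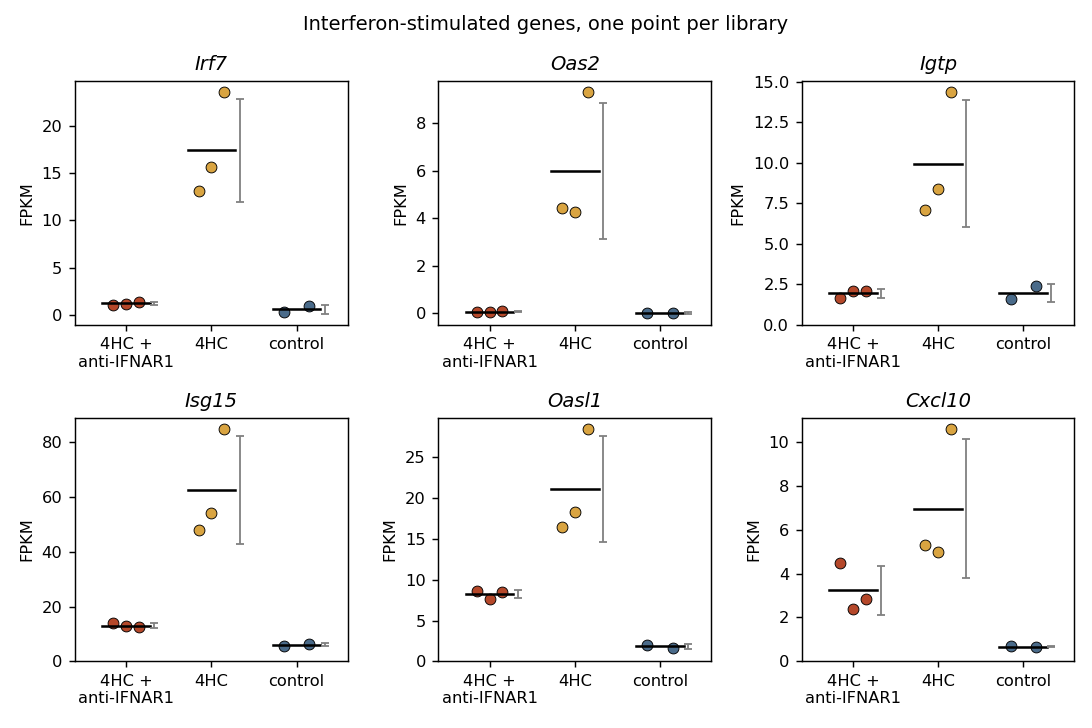
FPKM of Irf7, Oas2, Igtp, Isg15, Oasl1 and Cxcl10 on linear axes, with 1 point per library, a horizontal line at the group mean and a grey bar of ± 1 SD, for 4HC with antibody, 4HC and control. Igtp with antibody overlaps control, Irf7 and Oas2 with antibody sit just above control, Isg15, Oasl1 and Cxcl10 sit between control and 4HC, and the highest point of each 4HC group is its shallowest library.

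Interferon-inducible GTPases, which act against intracellular pathogens, had 12 members above 1 FPKM, of which 6 rose and 0 fell, with a median log2 fold of 1.07. Igtp (chr11:58013057-58021094) had 1.63, 2.10 and 2.08 FPKM with antibody, 7.09, 8.36 and 14.4 FPKM with 4HC, and 1.59 and 2.38 FPKM in control. Antibody and control libraries overlapped (log2 fold -0.08, limma adjusted p = 0.787), and antibody was below 4HC by 2.28 on the log2 scale (adjusted p = 0.00525). Gbp4, a guanylate-binding protein, had 5.87, 6.75 and 6.52 FPKM with antibody, 9.08, 10.1 and 13.2 FPKM with 4HC, and 0.924 and 1.30 FPKM in control. It rose by 2.37 over control and its log2 difference of -0.73 from 4HC did not pass the test (adjusted p = 0.0840). The near-identical pair Tgtp1 and Tgtp2 rose by 2.6 and 2.51, and reads may have been divided between them by the counting. Their calls against 4HC were lost without the middle antibody library or the middle or shallowest 4HC library, and for Tgtp1 also without the deepest (limma adjusted p of 0.0655 to 0.156). Gbp3 rose by 1.33, which was 0.95 without the deeper control library. In all, 9 of 15 GTPases above 1 FPKM with antibody or 4HC were lower with antibody.

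The MHC class I pathway, which displays peptides to CD8 T cells, had all 21 members above 1 FPKM, with 5 that rose, 0 that fell and a median of 0.66. The shares of all tested genes that rose and fell were 13.3% and 4.02%. Psmb9, a subunit of the immunoproteasome, had 4.94, 4.81 and 7.13 FPKM with antibody, 9.08, 10.3 and 7.92 FPKM with 4HC, and 1.01 and 1.84 FPKM in control. Its antibody libraries lay between those of the other groups, with a log2 difference from 4HC of -0.67 that did not pass the test (limma adjusted p = 0.200). H2-T22 rose by 1.20, and its log2 difference from 4HC was -0.63 (adjusted p = 0.0154), short of 2-fold. H2-Q6 and H2-Q7 rose by 1.23 and 1.43, and these close paralogs are uncertain as single genes. H2-T23 and Tap1, named because they passed the 2-fold call against 4HC, for which 5 members had no library values, averaged 11.9 and 4.06 FPKM with antibody, 33.5 and 8.82 FPKM with 4HC, and 6.10 and 4.09 FPKM in control.

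Of the receptor's own signalling genes, 13 were above 1 FPKM, 2 rose and 0 fell, near the 13.3% of all tested genes that rose. Ifnar1 had no library values and averaged 5.51 FPKM with antibody, 4.91 FPKM with 4HC and 4.46 FPKM in control. Ifnar2 had 10.7, 11.7 and 10.4 FPKM with antibody, against 7.48 and 6.75 FPKM in control, a log2 fold of 0.57 that passed the test (limma adjusted p = 0.00549) below the 2-fold limit. Stat2, part of the complex that binds the ISRE, rose by 1.31 and was lower than with 4HC by 1.4 on the log2 scale (limma adjusted p = 0.0170). Its call against 4HC did not hold without any 1 of the antibody libraries (adjusted p of 0.0505 to 0.0840). Of 17 interferon ligand genes in the table none exceeded 1 FPKM, and Ifnb1 was at 0 in all 8 libraries of the 3 groups. Among 22 nucleic acid sensing genes above 1 FPKM, 4 rose and 0 fell, also near the 13.3% of all tested genes, with Ifi205, an AIM2-like receptor, at 0.807, 0.953 and 1.26 FPKM with antibody, against 0.0347 and 0.0184 FPKM in control. Without the shallowest antibody library the means of Ifi205 and of Tgtp2 were below the 1 FPKM minimum, so neither call held.

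In all, 64 genes were lower with antibody than with 4HC alone, and 63 of them had risen with 4HC alone over control. Both comparisons share the 4HC libraries, so this overlap is partly built in and is no separate result. Of all genes tested with 4HC alone over control, 12.6% rose. The 5 interferon lists (antiviral ISGs, GTPases, MHC class I, receptor signalling and nucleic acid sensing) held 45 of the 64. These lists were chosen with earlier results of these data known, so this count is a description and was not tested. With antibody, 20 of the 64 still rose over control, 29 were tested against control and neither rose nor fell, and 15 were at or below 1 FPKM in both groups. Among those outside the interferon lists, Lgals9 (galectin-9, a ligand of TIM-3) had 13.1, 12.5 and 12.5 FPKM with antibody, 29.8, 27.6 and 43.1 FPKM with 4HC, and 2.82 and 2.98 FPKM in control. Ly6a (Sca-1) had 1.83, 2.00 and 1.82 FPKM with antibody, 8.37, 7.54 and 12.5 FPKM with 4HC, and 0.0279 and 0.0890 FPKM in control. Cfb, complement factor B, had 1.72, 1.83 and 1.64 FPKM with antibody, 3.63, 3.39 and 6.27 FPKM with 4HC, and 0.0204 and 0.0216 FPKM in control, and its call against 4HC (limma adjusted p = 0.0460) did not hold without any 1 of the 3 antibody libraries (adjusted p of 0.133 to 0.166) or without the deepest 4HC library (0.0739), and its log2 difference was -0.95 without the shallowest 4HC library. Cxcl10, an ISG and T cell chemokine, had 4.47, 2.37 and 2.85 FPKM with antibody, 5.31, 4.97 and 10.6 FPKM with 4HC, and 0.686 and 0.648 FPKM in control. It rose over control by 2.07 (adjusted p = 0.000750), and its log2 difference of -1.06 from 4HC did not pass the test (adjusted p = 0.448). The 2 genes higher with antibody than with 4HC were rows of small RNAs, Snora15 and Mir7652, which poly(A) libraries sample poorly. Of the 64 calls, 36 remained when each library was left out in turn, and without the middle antibody library 39 genes were called lower.

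**Figure D4:**
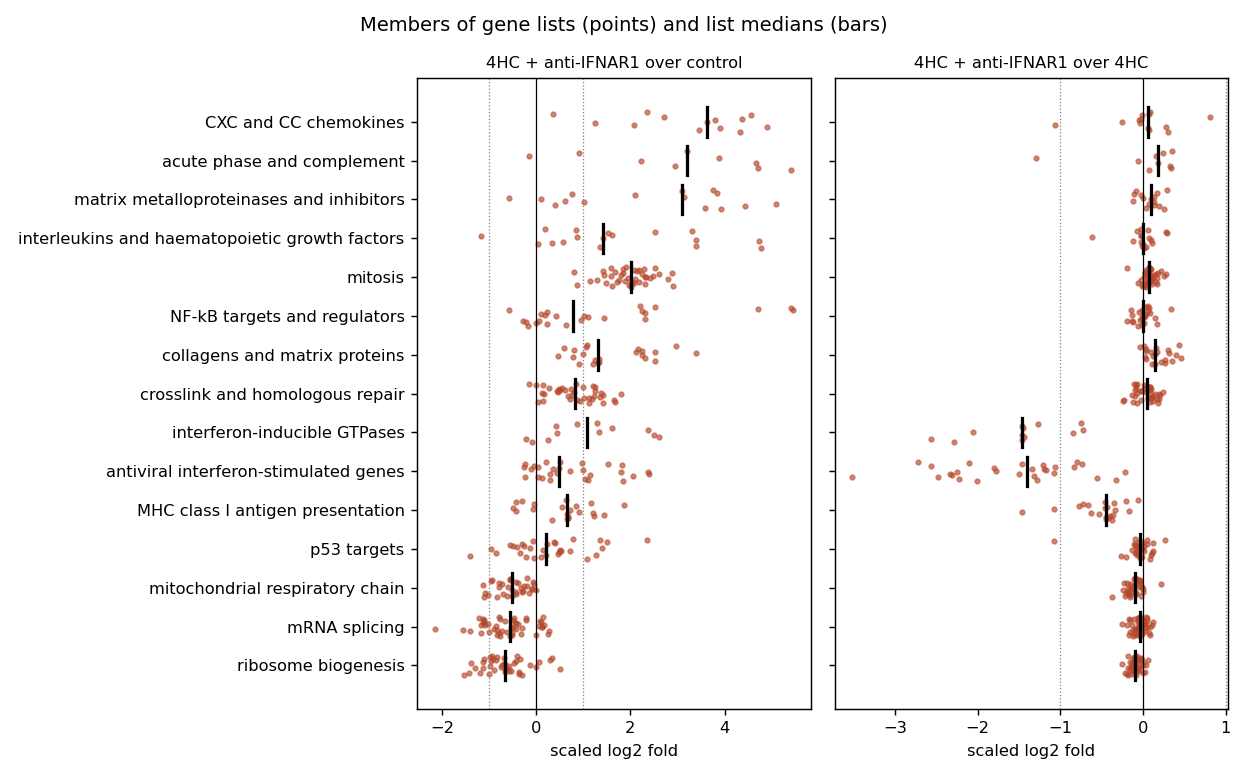
Scaled log2 folds of the members above 1 FPKM (points) and the median (bar) of 15 gene lists, for 4HC with antibody over control (left) and over 4HC alone (right), with dotted lines at 2-fold. Chemokine, acute phase, protease and mitosis medians lie between 2.01 and 3.62 on the left and between 0.06 and 0.18 on the right, whereas the antiviral ISG and GTPase medians on the right are -1.40 and -1.46.

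Promoters of genes that stayed high under the antibody and of genes that were lower than with 4HC, or lay between, are shown with the matches to 3 motifs. The sequences are RefSeq's for build GRCm38.p6, from 250 bases before to 50 bases after the start, 5′ to 3′ on the gene's strand, with matches in capitals. Searched on both strands were a kB-like motif (GGG and TTTCC with any 2 bases between them), an ISRE-like motif (GAAA and GAAA with any 2 bases between them) and an AP-1-like motif (TGANTCA). None of these patterns contains another, and matches of 1 motif may overlap, as in Isg15. Only these letters were sought, so close variants of a motif, as of the kB-like motif in Cxcl10, were not counted. Cxcl1 (chr5:90890995-90891294, plus strand), Ccl20 (chr1:83116516-83116815, plus) and Il6 (chr5:30012864-30013163, plus) held kB-like matches, and Il6 and Mmp3 (chr9:7445572-7445871, plus) held AP-1-like matches. Igtp (chr11:58199306-58199605, plus) and Isg15 (chr4:156200769-156201068, minus) held ISRE-like matches, and Cxcl10 (chr5:92348840-92349139, minus) held an ISRE-like and an AP-1-like match.
Cxcl1: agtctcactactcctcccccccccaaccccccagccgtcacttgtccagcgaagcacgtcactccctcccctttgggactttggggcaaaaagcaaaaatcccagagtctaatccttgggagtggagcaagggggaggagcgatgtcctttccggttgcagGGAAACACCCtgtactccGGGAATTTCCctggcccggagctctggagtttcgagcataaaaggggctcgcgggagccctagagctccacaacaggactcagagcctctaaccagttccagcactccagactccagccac
Ccl20: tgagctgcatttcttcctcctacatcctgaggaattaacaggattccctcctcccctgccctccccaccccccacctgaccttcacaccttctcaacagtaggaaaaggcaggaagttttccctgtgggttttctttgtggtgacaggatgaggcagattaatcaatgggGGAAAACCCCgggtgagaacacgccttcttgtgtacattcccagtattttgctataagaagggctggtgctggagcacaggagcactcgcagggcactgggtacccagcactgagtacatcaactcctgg
Il6: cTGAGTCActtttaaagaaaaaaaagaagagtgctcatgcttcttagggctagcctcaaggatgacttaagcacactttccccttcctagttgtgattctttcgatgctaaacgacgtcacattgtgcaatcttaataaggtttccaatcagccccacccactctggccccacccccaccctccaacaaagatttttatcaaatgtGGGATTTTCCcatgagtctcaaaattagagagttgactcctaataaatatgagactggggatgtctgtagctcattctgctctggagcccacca
Mmp3: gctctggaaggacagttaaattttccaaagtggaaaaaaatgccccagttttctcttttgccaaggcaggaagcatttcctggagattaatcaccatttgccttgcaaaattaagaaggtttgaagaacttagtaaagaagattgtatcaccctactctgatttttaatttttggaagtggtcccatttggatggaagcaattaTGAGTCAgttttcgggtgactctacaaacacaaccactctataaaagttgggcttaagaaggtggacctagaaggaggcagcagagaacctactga
Igtp: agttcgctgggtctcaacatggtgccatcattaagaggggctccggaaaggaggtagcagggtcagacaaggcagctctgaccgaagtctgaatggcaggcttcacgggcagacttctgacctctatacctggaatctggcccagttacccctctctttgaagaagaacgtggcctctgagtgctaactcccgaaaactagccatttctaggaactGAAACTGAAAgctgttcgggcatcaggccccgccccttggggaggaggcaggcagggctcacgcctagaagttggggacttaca
Isg15: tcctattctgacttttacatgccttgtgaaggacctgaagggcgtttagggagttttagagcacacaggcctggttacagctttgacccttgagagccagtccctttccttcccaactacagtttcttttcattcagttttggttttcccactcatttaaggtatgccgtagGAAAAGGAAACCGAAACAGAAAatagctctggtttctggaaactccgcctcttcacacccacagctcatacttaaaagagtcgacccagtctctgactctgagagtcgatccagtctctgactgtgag
Cxcl10: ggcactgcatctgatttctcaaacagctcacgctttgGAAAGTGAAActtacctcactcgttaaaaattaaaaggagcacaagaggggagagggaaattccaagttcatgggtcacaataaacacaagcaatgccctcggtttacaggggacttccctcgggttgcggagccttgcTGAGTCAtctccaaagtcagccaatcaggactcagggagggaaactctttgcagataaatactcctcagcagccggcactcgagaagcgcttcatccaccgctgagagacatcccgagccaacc

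Over the 27025 genes with a promoter in the table, 1.90% held the kB-like, 3.99% the ISRE-like and 8.97% the AP-1-like motif. Among genes above 1 FPKM the shares were 2.08%, 3.65% and 6.10%, and among all genes that rose, of which 890 had a promoter, they were 3.03%, 5.96% and 9.78%. Of the 88 genes that rose more than 8-fold with 4HC and antibody, 49 had a promoter in the table, and 7 of them (14.3%) held the kB-like, 5 (10.2%) the ISRE-like and 11 (22.4%) the AP-1-like motif. Of the 64 genes lower with antibody than with 4HC, 45 had a promoter, of which 0 held the kB-like, 25 (55.6%) the ISRE-like and 11 (24.4%) the AP-1-like motif, a share close to that of the genes above 8-fold. Among chemokines 5 of 21 promoters held the kB-like motif, and among metalloproteinases and their inhibitors 7 of 20 held the AP-1-like motif. These matches are descriptions of letters in a window and no test of factor binding, and a promoter without a match may hold a variant of the motif.

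In the mitosis list every measured value was above control. All 41 members were above 1 FPKM, 39 were more than 2-fold higher with 4HC and antibody, 34 rose, 0 fell and 6 had no library values, with a median log2 fold of 2.01. Ccnb2 (chr9:70255495-70269361), a mitotic cyclin, had 36.2, 41.9 and 37.3 FPKM with antibody, 45.2, 37.3 and 35.1 FPKM with 4HC, and 4.77 and 4.97 FPKM in control. The antibody and 4HC libraries overlapped, and both groups lay apart from control (log2 fold 2.91, SE 0.11, limma adjusted p = 1.45e-05). Hmmr, a spindle-associated protein, had 20.6, 23.9 and 19.8 FPKM with antibody, against 2.91 and 2.57 FPKM in control. Mki67, the proliferation antigen Ki-67, had no library values and averaged 26.0 FPKM with antibody, 21.6 FPKM with 4HC and 4.03 FPKM in control. Cdk1, the mitotic kinase, had a log2 fold of 0.87, and it and Ect2 were the members below 2-fold. In bulk RNA a larger share of cells in mitosis and more RNA per cell cannot be told apart.

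DNA replication genes moved less uniformly, with 10 of 38 that rose, 0 that fell and a median of 0.47, beside 13.3% and 4.02% of all tested genes. Rrm2, a subunit of ribonucleotide reductase, had 40.1, 36.7 and 32.1 FPKM with antibody, against 9.18 and 10.3 FPKM in control, and Cdc45, part of the replicative helicase, rose by 1.66. Pcna and Fen1 had log2 folds of -0.45 and -0.47. Of 38 genes of crosslink and homologous repair above 1 FPKM, 15 rose and 0 fell, with a median of 0.83. Fancd2, which is ubiquitinated at stalled forks, had 2.87, 2.86 and 2.58 FPKM with antibody, 2.58, 2.33 and 2.99 FPKM with 4HC, and 0.813 and 0.721 FPKM in control. Rad54l, a DNA translocase of homologous recombination, rose by 1.8.

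Of 31 targets of p53 above 1 FPKM, 6 rose and 1 fell, near the 13.3% and 4.02% of all tested genes, with a median of 0.21. Cdkn1a, the inhibitor p21, had 2.86, 3.97 and 4.32 FPKM with antibody, 3.75, 3.27 and 3.60 FPKM with 4HC, and 1.31 and 1.99 FPKM in control. It rose by 1.08 (limma adjusted p = 0.00698), and its log2 fold was 0.80 without the deeper control library and 0.94 without the shallowest antibody library. Bbc3, the pro-apoptotic PUMA, fell, at 2.40, 2.52 and 3.19 FPKM with antibody, against 7.02 and 7.17 FPKM in control. Psrc1, a microtubule-associated target, had the highest log2 fold of the list, 2.36. In the apoptosis and necroptosis list 0 of 28 rose and 2 fell, Bbc3 and Cycs (cytochrome c, at -0.99 without the shallower control library).

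**Figure D5:**
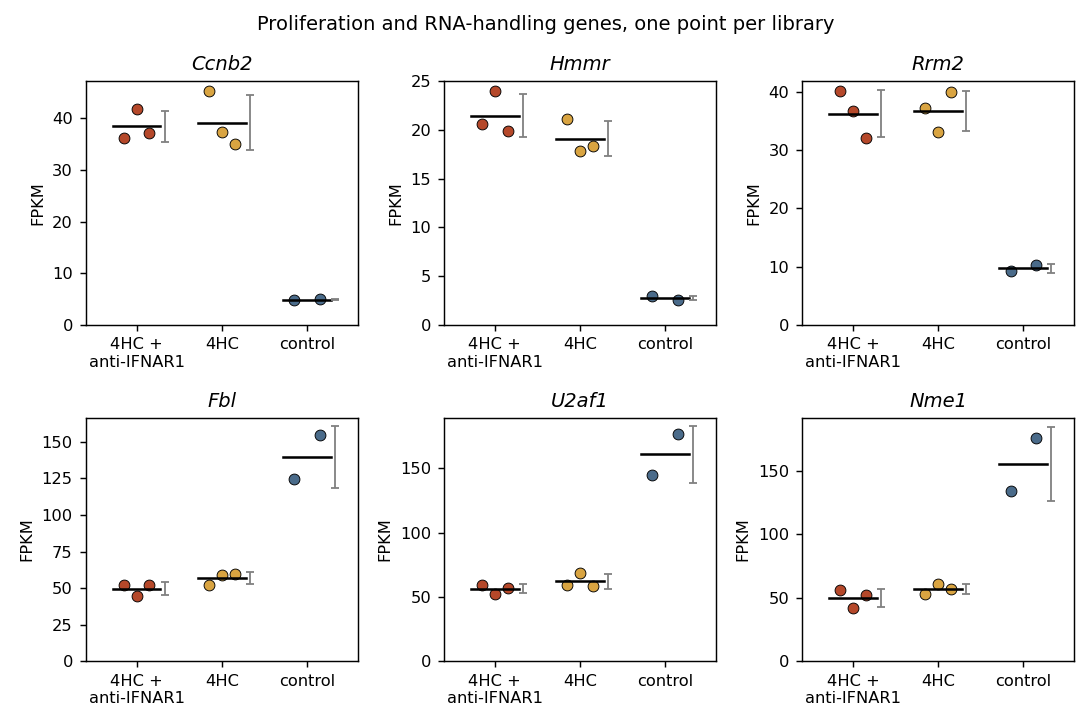
FPKM of Ccnb2, Hmmr, Rrm2, Fbl, U2af1 and Nme1 on linear axes from 0, with 1 point per library, a horizontal line at the group mean and a grey bar of ± 1 SD, for 4HC with antibody, 4HC and control. The upper genes lie above control and the lower genes below it in both treated groups, whose points overlap or lie close together.

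Lists of RNA processing, ribosomes and respiration had medians below 0, and 0 of their members rose. Over all tested genes 13.3% rose and 4.02% fell. Of 42 ribosome biogenesis genes 8 fell, with a median of -0.67 and 37 negative values. Fbl (chr7:28954766-28964288), the methyltransferase fibrillarin, had 52.3, 44.4 and 52.0 FPKM with antibody, 52.3, 59.1 and 59.5 FPKM with 4HC, and 124 and 154 FPKM in control. Every treated library lay below every control library, with a log2 fold of -1.54 (SE 0.14, limma adjusted p = 0.000193). Gar1, a box H/ACA protein, and Rrs1, a factor of the large subunit, fell by 1.43 and 1.38 on the log2 scale. Of 49 splicing genes 12 were more than 2-fold lower and 6 fell, with 18 that had no library values and a median of -0.56. Prpf3 (chr3:95634544-95659676), a U4/U6 factor, had 15.0, 11.8 and 14.6 FPKM with antibody, 13.2, 14.9 and 15.3 FPKM with 4HC, and 54.9 and 63.6 FPKM in control. U2af1 (chr17:31784026-31795699), which reads the 3' splice site, had 59.5, 52.6 and 57.3 FPKM with antibody, against 145 and 176 FPKM in control.

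Respiratory chain genes had a median of -0.51 with 33 of 34 values negative and 3 genes without library values. Beside the 4.02% of all tested genes that fell, 4 of the list fell, Ndufa2, Ndufa9, Ndufb8 and Uqcrfs1, all subunits of complex I or III. Without the shallower control library none of the 4 reached 2-fold (log2 folds of -0.82, -0.90, -0.93 and -0.83), and Ndufa9 was at -0.99 without the middle antibody library. Cytosolic ribosomal proteins had a median of -0.50 with 45 of 46 negative, but 41 had no library values, and 3 (Rpl13, Rps23 and Rps14) were more than 2-fold lower. Of 28 genes of the unfolded protein and integrated stress response 0 rose or fell, and 3 without library values were more than 2-fold lower. Hspa5, the chaperone BiP, averaged 276 FPKM with antibody, 311 FPKM with 4HC and 577 FPKM in control, and Trib3, a pseudokinase induced by ATF4, averaged 26.6, 33.6 and 81.9 FPKM. The transcription factor Atf3 fell, with 8.46, 6.63 and 9.42 FPKM with antibody, against 23.1 and 22.3 FPKM in control.

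Length moved with these decreases. Genes that fell had a median counted length of 1395 bases, against 2597 bases over all tested genes, and 53.6% of them were shorter than 1500 bases, against 21.9% of all. The median log2 fold over control was -0.36 below 750 bases, -0.16 from 750 to 1500, 0.06 from 1500 to 3000, 0.18 from 3000 to 6000 and 0.27 above, and the share that fell was 15.9% in the shortest class and 0.671% in the longest. The 2 control libraries also differed by length, with a median log2 difference of the deeper over the shallower of -0.10 in the shortest class and 0.34 in the longest. Among genes of 1500 to 6000 bases 168 fell and 908 rose. The share that fell was 3.41% of 3487 tested genes from 1500 to 3000 bases and 1.57% of 3121 from 3000 to 6000. Over all tested genes it was 4.02%. The part of length in the lower levels of these lists was not tested.

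Small RNA rows, unnamed gene models and date-like names aside, the largest single decrease among genes of at least 5 FPKM was that of Cdsn. It encodes corneodesmosin of cornified epithelium and had 1.04, 1.26 and 1.97 FPKM with antibody, against 10.9 and 7.08 FPKM in control. Of 9 keratins above 1 FPKM 5 were more than 2-fold higher, 3 rose and 1 fell, with a median log2 fold of 1.26. Of the 9, 3 had no library values. The 3 keratins that rose and the 1 that fell stand beside 13.3% and 4.02% of all tested genes. Krt8 and Krt18 averaged 136 and 218 FPKM with antibody, against 52.3 and 88.1 FPKM in control. Krt14, Krt16 and Krt17, keratins of basal or activated keratinocytes, rose by 2.54, 2.75 and 3.25, and Cldn1, a tight junction claudin, had 1.12, 1.27 and 1.07 FPKM with antibody, against 0.0259 and 0 FPKM in control. Mgp, matrix Gla protein, had 21.4, 36.2 and 22 FPKM with antibody, against 0.560 and 0.893 FPKM in control. Vim, the mesenchymal intermediate filament, averaged 360 FPKM with antibody, 360 FPKM with 4HC and 68.1 FPKM in control. Of the leukocyte list 3 of 25 genes in the table exceeded 1 FPKM, S100a8, Cd14 and Cd68, and the list's summed level was 19.0 FPKM with antibody, 18.1 FPKM with 4HC and 3.92 FPKM in control. Of the fibroblast and endothelial list only Pdgfra exceeded 1 FPKM (summed 5.11, 4.26 and 0.669 FPKM), and the defining markers of these cells were near 0 as given above.

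Further groups with a bearing on tumour immunity also moved. Of 12 checkpoint and tumour immune ligands above 1 FPKM, 7 rose and 0 fell, with a median of 1.13. Havcr2 (TIM-3) had 3.04, 2.28 and 1.71 FPKM with antibody, 2.08, 1.54 and 2.61 FPKM with 4HC, and 0.0821 and 0.0109 FPKM in control. Pvr, a ligand of DNAM-1 and TIGIT, had 20.3, 20.6 and 17.7 FPKM with antibody, against 8.4 and 6.08 FPKM in control. Cd274 (PD-L1) did not pass the test, with 1.26, 1.05 and 1.12 FPKM with antibody, 1.65, 1.42 and 2.06 FPKM with 4HC, and 0.930 and 1.07 FPKM in control. Of 6 clade B serpins above 1 FPKM 5 rose, and Serpinb9b, a relative of the granzyme B inhibitor Serpinb9, had 6.60, 5.67 and 4.81 FPKM with antibody, against 0.188 and 0.0770 FPKM in control. Among 6 inflammasome and pyroptosis genes 4 rose, among them Casp1 (log2 fold 1.93) and Gsdmd (1.06, and 0.99 without the middle antibody library).

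In smaller metabolic and signalling groups some members rose. Over all tested genes 13.3% rose and 4.02% fell. Prostaglandin enzymes had a median of 2.14, with 4 of 9 that rose, 1 that fell and Ptgs2 (cyclooxygenase-2, no library values) at a mean of 77.6 FPKM with antibody, 75.7 FPKM with 4HC and 15.9 FPKM in control. Of 24 NRF2 targets 6 rose, led by the aldehyde dehydrogenase Aldh3a1, with 10.7, 12.2 and 9.26 FPKM with antibody, against 0.583 and 0.705 FPKM in control. Some aldehyde dehydrogenases, but not all, act on cyclophosphamide metabolites. Of 11 members of the family 3 rose (Aldh3a1, Aldh3b1 and Aldh16a1, the last at 0.86 without the shallower control library). Of 22 AP-1 and immediate early genes 7 rose and 1 fell, with Fos at 2.22, 3.32 and 2.95 FPKM with antibody, against 0.0534 and 0.199 FPKM in control, and Jun at a log2 fold of 0.05. Among 14 circadian clock genes 4 fell (Ciart, Per2, Cry1 and Tef) and 2 rose, among them Bhlhe40. The 1 AP-1 gene that fell and the 2 clock genes that rose were near the shares of all tested genes. Without the deeper control library Per2 was at -0.98 and Bhlhe40 at 0.95.

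At the low end, 24 genes were listed at 0 in both control libraries and above 0.5 FPKM with 4HC and antibody, and 12 showed the reverse. Of the 24, 12 were small RNA rows with few reads. Il13ra2, a decoy receptor for interleukin-13, had 1.85, 2.12 and 1.16 FPKM with antibody and was at least 60.8-fold higher than a control floor of 3 reads over the group. On the same floor Ccl3, a macrophage chemokine, was at least 24.2-fold and S100a8, a calprotectin subunit, at least 14.5-fold higher.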

How the data were processed

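RNA was measured by poly(A)-selected, strand-specific sequencing. The authors mapped reads to mm9 with TopHat2, counted them with featureCounts and compared groups with edgeR; tool versions and whether the counting used strand were not found in the labels or methods. The deposited table gives the authors' mean FPKM of each group, and its columns of ratios, fold changes and p-values, which hold the authors' own comparisons, were not used.

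Group means were scaled by a trimmed mean of log ratios (30% of ratios and 5% of levels removed at each end), and log2 folds were taken on FPKM + 0.1, which understates the change of low genes. Scaling moved log2 folds by 0.046 over control and by -0.020 over 4HC. A gene counted as above background when its higher group exceeded 1 FPKM. Library values were recovered as whole read counts that gave a deposited mean, a step added after the data were seen. Solutions were sought in a window around the group mean, which was narrowed where the wider window did not give a single solution. Values were kept only where the window held a single solution. This takes libraries of a group to lie near each other, so their spreads, SEs and limma p-values may be too small. The library values were tested with limma 3.58.1 in R 4.3.3 with Benjamini-Hochberg adjustment over all tested genes. Intervals and floors cover counting error only. The study's methods describe the replicates as separate cultures. Other steps used Python 3.11.15 with numpy 2.4.6, pandas 2.3.3 and scipy 1.17.1.

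Symbols matched a gene name in 24078 of 24197 rows, and 27 rows had date-like names. Gene positions are mm9 as deposited, and promoters are from RefSeq (GRCm38.p6). The gene lists were chosen with earlier results of these data known. Named genes were the 12 highest and 12 lowest folds among genes of at least 5 FPKM, up to 4 called members of each list, a fixed set of interferon and inflammatory genes, called genes with the largest difference from 4HC, and the ISGs and GTPases with the highest remaining fold. The highest and lowest folds left out small RNA rows, unnamed gene models and date-like names. Ccl2, Ccl3, Ccl17, Ccl25, Cxcl2, Cxcl3, Cxcl16, Cx3cl1, Csf3, Tnf, Tslp, Nfkbia, Cdk1, Ect2, Pcna, Fen1, H2-T23, Tap1, Ptgs2, Jun, Tef, Il13ra2, Snora15 and Mir7652 were named after their values were seen. Alternatives were other scalings, pseudocounts, minima and folds, length limits, and leaving out each library. Some items withheld for evaluation are not reported here.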

Additional observations from a re-analysis of the deposited data

How the results depend on the processing

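No paired analysis was possible because the deposited columns are group means and the recovered libraries carry no replicate numbers. Of 1736 genes past 2-fold over control, 74.7% were higher. With a pseudocount of 1 there were 1037 (741 higher), with a minimum of 5 FPKM 949 (614 higher, 64.7%), with no minimum 2649 (2106 higher), above 1.5-fold 4031 (2468 higher and 1563 lower, 61.2% higher) and above 4-fold 374 (341 higher and 33 lower, 91.2% higher). Leaving out each library in turn gave 1546 to 2000 genes past 2-fold, 1158 to 1436 higher and 384 to 564 lower, and with limma 1469 to 1953, 1121 to 1424 and 328 to 529. Limited to counted lengths of 1500 to 6000 bases, 168 genes fell and 908 rose, against 371 and 1231 over all lengths. Against 4HC, 42 genes were higher with a minimum of 0.5 FPKM, and 66 passed fold and limma, 2 of them higher. Leaving out each library there gave 101 to 123 in all, 19 to 39 higher and 68 to 96 lower, and with limma 39 to 66, 0 to 4 and 39 to 65. Genes at 0 in control numbered 218 with a minimum of 0.1 FPKM and 4 with 1 FPKM, and the reverse 48 and 6. Rsad2 and Cdkn1a had log2 folds of 0.99 and 0.78 with a pseudocount of 1. By fold alone, that pseudocount lowered the antiviral ISGs more than 2-fold higher from 10 to 5. GTPases went from 6 to 2, receptor signalling from 2 to 0, nucleic acid sensing from 4 to 1 and crosslink and homologous repair from 16 to 5. Chemokines went from 12 to 11, and mitosis stayed at 39. No gene of the fixed set past 2-fold changed direction with other scaling or pseudocounts, and direction was not checked for every other gene. The 2 control libraries limit the precision of all comparisons with control, and genes without library values had no test.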

Other observations

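Cells given 250 U/mL IFNβ for 4 h and collected 2 h later, in the same table, were set against no other group here, since the other groups were collected at 72 h. They had authors' mean levels of 0.583 FPKM for Il1a, 3.52 FPKM for Cxcl1, 0.577 FPKM for Nos2, 0.290 FPKM for Mmp13, 0.375 FPKM for Ccl20 and 5.15 FPKM for Lcn2. In the same cells the ISGs Irf7, Igtp, Isg15, Ifit1 and Cxcl10 averaged 61.4, 80.2, 252, 105 and 56.1 FPKM. Oas2 averaged 2.67 FPKM and Ly6a 5.83 FPKM. The mitotic cyclin Ccnb2 averaged 7.68 FPKM and fibrillarin, encoded by Fbl, 123 FPKM.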
